A study of Oryctolagus cuniculus with 3 samples.

Results

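The comparison described here is that of all protein-coding genes between 2 libraries of rabbit cumulus-oocyte complexes, the library labelled CG and the library labelled LAC. A gene was taken as coding when its row in the deposited gene table listed a RefSeq messenger RNA, and it was kept when the library with the higher count had at least 10 estimated counts. Of 39681 loci in the table, 20008 were coding rows, and 15009 of these reached the count minimum. The other 4999 coding rows stayed below it and were left out.

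The study set out to examine coding and long non-coding RNA of the complex at different ammonia concentrations in the air. Its 150 female IRA rabbits were 35 days old and were housed for 4 weeks under less than 3 ppm of NH3 (group CG), 10 ppm (group LAC) or 30 ppm (group HAC). The complexes came from the ovary after slaughter, and the number of animals behind a library is not stated in the labels. Each of the 3 groups had 1 library, so no difference given here has a replicate check and no test was possible. The interval beside a fold change is an exact binomial 95% interval that covers counting error only.

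A cumulus-oocyte complex is the egg cell with the layers of somatic cumulus cells around it, coupled to it by gap junctions. Cumulus cells are related to granulosa cells, divide while the follicle grows, and supply the oocyte with metabolites and signals. A growing oocyte stores large amounts of messenger RNA for use after fertilisation, so its transcripts can make up a visible share of RNA from a complex.

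The label of the LAC gene table is uncertain. For LAC and HAC the deposited gene values were identical in 39681 of 39681 rows, under headings that read LAC in both, but the FPKM maximum of that table, 39491.82, is the one stated in the HAC file's own statistics, where those of the LAC file state 86393.85. Estimated counts summed to 78461882 in CG and 68523767 in LAC, and each count stands for about 0.5 of a read. Coding rows made up 75.4% of CG's counts and 65.8% of LAC's, and spliced reads made up 22.01% of the reads in the file of CG and 16.23% in that of LAC. Their part in the differences below was not tested.

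Levels are given as CPM, the TMM-scaled share of a library's counts. They are not divided by gene length, so they compare a gene between libraries and not 1 gene with another. A gene called abundant, or highest in level, is so by CPM, which also depends on its length. Where a pair of CPM values is given, CG comes first and LAC second. A gene is called higher or lower in LAC when log2(CPM + 1) differed by at least 1. By this size rule 283 of the 15009 genes were higher in LAC, a share of 1.89%, and 1653 were lower, a share of 11.0%. The median difference over all genes was -0.14 on the log2 scale. The central part of the genes was narrow: 66.8% lay within 0.5 of 0 in either direction, with quartiles of -0.51 and 0.16. The tails were unequal, with the 5th percentile at -1.53 and the 95th at 0.64. A difference of 2 or more was reached by 41 genes on the higher side and 323 on the lower side. Among the 4054 genes with at least 50 CPM in either library, 46 were higher (1.13%) and 472 lower (11.6%). Called genes above 0 in both libraries had a median fold of 3.27 where higher and 3.64 where lower.

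**Figure D1:**
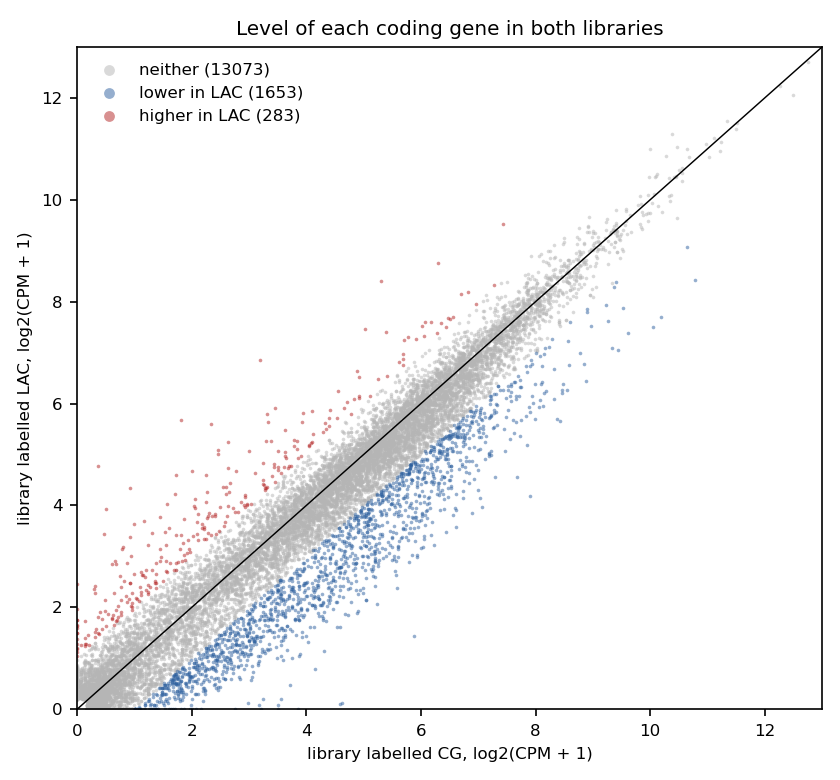
Level of each of 15009 coding genes in the library labelled CG (horizontal axis) and the library labelled LAC (vertical axis), both as log2(CPM + 1), with the line of equal level. Blue points are the 1653 genes lower in LAC, red points the 283 higher, grey points the 13073 that were neither; the blue points form a band below the line at all but the highest levels.

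Markers of the cell types in the complex did not move alike. All 27 oocyte markers over the count minimum were lower in LAC, with differences from -2.88 to -1.28 and a median of -2.05. Their summed level was 6248 and 1263 CPM, while SOHLH1 was listed at 0 in both. Of the 1653 lower genes, 1626 are not on this marker list, and 1056 (63.9%) differed by an amount inside the markers' range. That range is wide, so this share says little about likeness to the markers. Its end at -1.28 is FIGLA, 6.17-fold lower at 2.36 and 0.383 CPM, where the added 1 CPM shrinks the difference. The markers' quartiles were -2.23 and -1.89. The 14 granulosa and cumulus markers summed to 14540 and 14128 CPM, with 0 higher and 1 lower. Stromal fibroblast markers summed to 141 and 247 CPM, with 5 of 10 higher and 1 lower. Markers of smooth muscle went from 253 to 284 CPM (3 of 11 higher), and theca markers from 165 to 185 CPM (1 of 8 higher). Endothelial markers summed to 57 and 10.4 CPM, with most of it in TEK, at 46.7 and 4.23 CPM, and FLT1, at 6.52 and 1.06 CPM, while CDH5 was listed at 0 in CG and had 0.707 CPM in LAC. In these bulk libraries fewer cells of a type and less RNA per cell cannot be told apart, and the part of cell composition in the gene differences below was not tested.

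The largest decreases among genes of at least 50 CPM included regulators of protein turnover, signalling and germ-cell RNA. FEM1B, a substrate receptor of cullin ubiquitin ligases (OryCun2.0, sequence NC_013685.1, 4253634 to 4271964), had 239 and 17.1 CPM, 14-fold lower (12.8 to 15.2). RSPO2, a secreted R-spondin that amplifies Wnt signals, had 204 and 22.6 CPM, 9.04-fold lower (8.39 to 9.74). NLRP11, a member of the NLR family, had 133 and 14.7 CPM. All 3 were picked for the size of their difference, so their place beyond the 5th percentile of -1.53 was fixed by that choice. The scaffold gene PDZK1, whose product tethers membrane transporters, had 117 and 13.4 CPM. The cyclin gene CCNI2 had 85.5 and 10.2 CPM. RNF24, a RING-finger protein gene, had 74.3 and 8.39 CPM. Germ-cell RNA regulators followed, with RBM46 at 60.2 and 6.92 CPM and the piRNA factor MAEL at 129 and 16.6 CPM. The orphan receptor gene GPRC5A had 60 and 7.17 CPM and the forkhead gene FOXR1 54.1 and 6.44 CPM. ZSCAN21, a zinc finger gene, had 64.6 and 8.1 CPM, under a name that is uncertain, since the RefSeq table gives its transcript the symbol ZKSCAN1. GAS2, a cytoskeletal linker, had 62.8 and 8 CPM. RIPOR2, named FAM65B in the files, had 56.1 and 7.17 CPM, and RASGRP1, an activator of Ras, 71.4 and 9.62 CPM. The lowest of these folds was 7.43, for RASGRP1.

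The largest increases among genes of at least 50 CPM included secreted and cell-surface proteins. TNFRSF11B, which encodes the decoy receptor osteoprotegerin, went from 8.07 to 114 CPM, 14.2-fold higher (12.6 to 15.9). POSTN, the matrix protein periostin, went from 9.99 to 59.5 CPM, and CCN2, a matricellular growth factor listed as CTGF, from 31.6 to 175 CPM, 5.55-fold higher (5.22 to 5.9). These 3 had the largest differences of the 15 genes on the higher side. CREB3L2, a membrane-anchored transcription factor of the secretory pathway, reached the highest level, with 171 and 733 CPM, 4.3-fold higher (4.18 to 4.42). C1GALT1, which builds the core of mucin-type O-glycans, had 41 and 169 CPM. CHST11, a chondroitin sulphotransferase, had 65.8 and 194 CPM, 2.95-fold higher (2.82 to 3.09). Matrix and surface genes of the set also included COL11A1 (53.4 and 157 CPM), SPON1 (63.5 and 182 CPM), TNC (20.4 and 57.2 CPM) and the protocadherin PCDH7 (103 and 284 CPM). MDM4, an inhibitor of p53, had 50.8 and 151 CPM. SGK1, a kinase induced by hormones and cell stress, had 112 and 289 CPM, 2.58-fold higher (2.49 to 2.68). MRPL17, of the mitochondrial ribosome, had 29.4 and 91.3 CPM, and C1QTNF6, a secreted C1q-like protein gene, 25 and 64.7 CPM. The row named BSP1 had 16.1 and 56.8 CPM, but its deposited description is of a ribosomal protein, so its identity is uncertain.

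**Figure D2:**
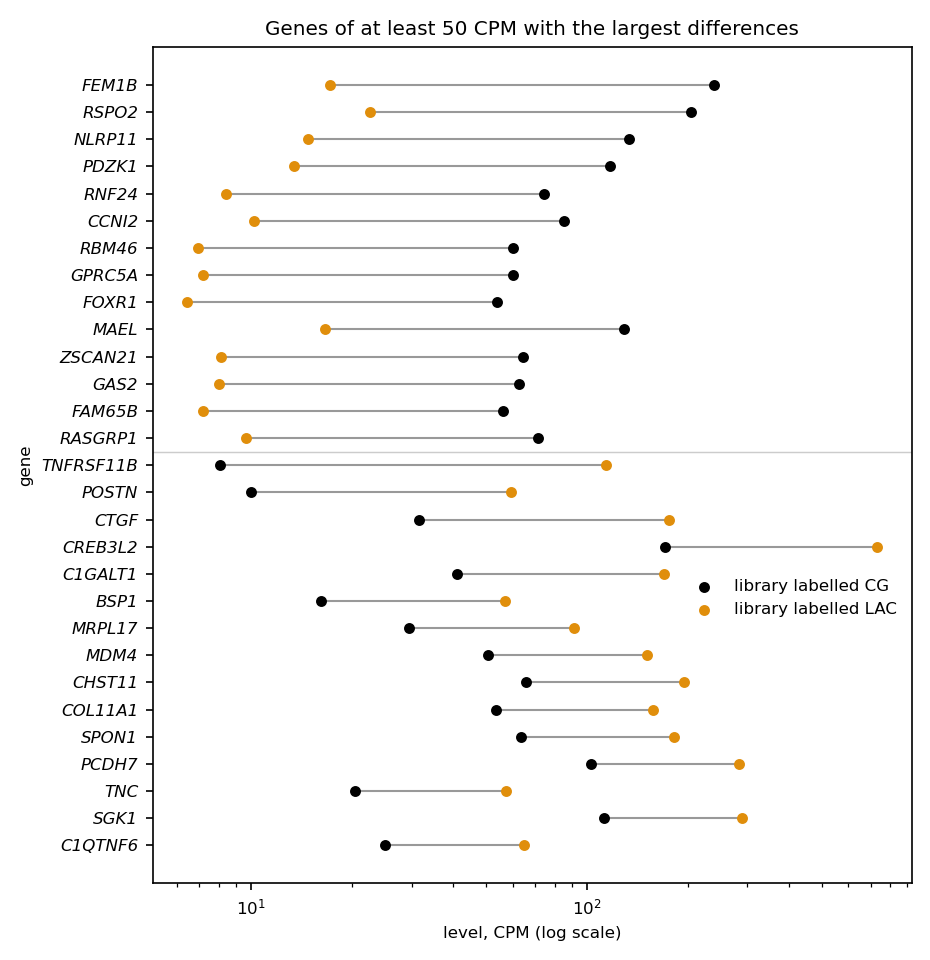
Level in CPM on a log scale of the genes named above, of at least 50 CPM, with the largest decreases (top) and the largest increases (bottom). Black points are the library labelled CG and orange points the library labelled LAC; the top genes differ by 7.43-fold to 14-fold and the bottom genes by 2.58-fold to 14.2-fold.

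The most abundant coding genes kept close levels. EEF1A1, a translation elongation factor, had 6908 and 6642 CPM, and GJA1, the gap junction protein connexin 43, 4933 and 4814 CPM. The proteoglycan gene VCAN and the inhibin and activin subunits INHBB, INHBA and INHA differed by -0.11 to 0.10 on the log2 scale. CNN3, an actin-binding calponin, had 2387 and 1976 CPM, LCP1, the actin bundler L-plastin, 2074 and 1826 CPM, and FNDC3B 2002 and 2179 CPM. FOXO1, a transcription factor restrained by insulin signalling, stood out among the 10 with 1340 and 2518 CPM, 1.88-fold higher (1.86 to 1.9), a difference of 0.91 that is just under the size rule.

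To describe functions, 85 lists of genes were drawn up in 15 areas, covering 4580 of the coding genes. In 43 lists at least 1 member was lower and none higher, 4 lists had no member past the size rule, 38 had a higher member, and in 4 of these the higher members outnumbered the lower. Lower genes were most frequent in DNA replication and repair (22.2% of 117 genes), cell division (19.9% of 151), cytoskeleton and motors (17.8% of 314), membrane transport (15.2% of 461) and signalling (15% of 699). They were least frequent in the mitochondrial area (6.36% of 173), metabolism (7.19% of 431), translation (7.36% of 163) and membrane traffic (7.65% of 392). Higher genes made up 7.51% of the 213 adhesion and surface genes, 3.72% of the signalling genes and 2.9% of the 241 immune genes. Of the adhesion and surface genes 13.6% were lower. In division, replication and repair, RNA processing and translation 0 genes were higher. These shares are to be set against 11.0% lower and 1.89% higher over all coding genes. With scaling factors from coding genes alone, which raises every log2 ratio by 0.18, the number of lower genes changed by over 1.5 times in 19 of the 85 lists and that of higher genes in 12.

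**Figure D3:**
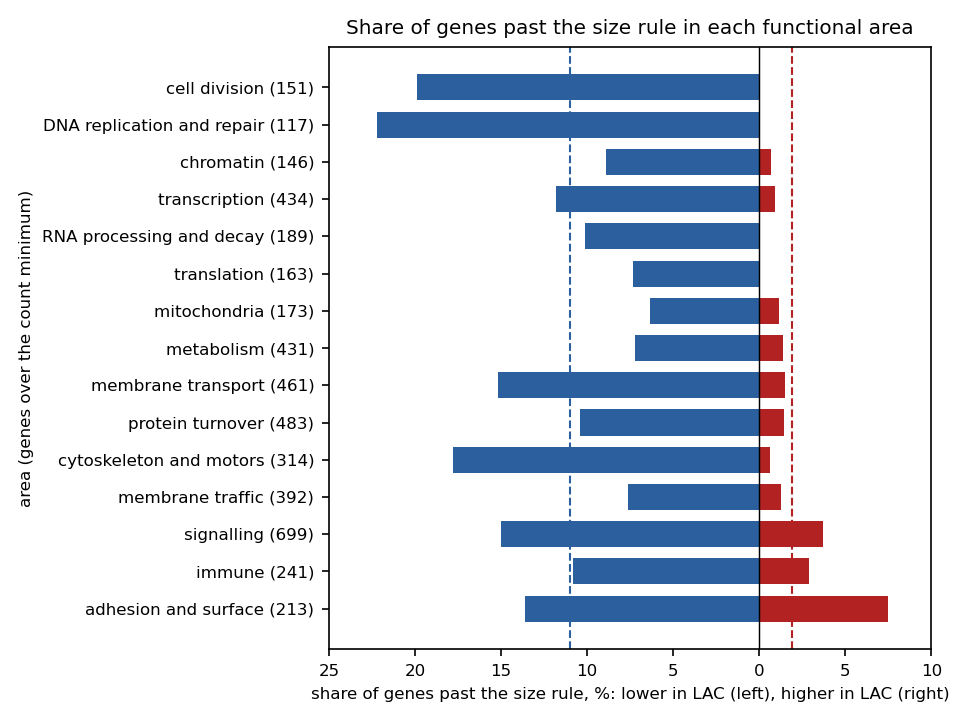
Share of genes past the size rule in 15 functional areas, in percent of the area's genes over the count minimum (number in brackets), with genes lower in LAC to the left in blue and genes higher to the right in red. Dashed lines mark the shares over all coding genes, 11.0% lower and 1.89% higher; DNA replication and repair extends farthest to the left, at 22.2%, and adhesion farthest to the right, at 7.51%.

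The kinetochore list had a larger share of lower genes than the coding genes at large. Of 43 kinetochore and spindle checkpoint genes, 16 were lower and 0 higher, with a median of -0.75 that lies 0.61 below that of all coding genes, and 3 of the 43 were above that overall median. CENPF, a kinetochore protein of dividing cells, had 502 and 182 CPM, 2.75-fold lower (2.68 to 2.83). SKA1, which couples kinetochores to microtubules, had 23.4 and 6.73 CPM, and SGO1, the protector of centromeric cohesion, 60 and 20.2 CPM. BUB3, a checkpoint protein, differed less, at 179 and 142 CPM. With factors from coding genes alone 9 of the 43 were lower.

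The other division lists moved by less. In the anaphase-promoting complex list 3 of 17 were lower, among them its inhibitor FBXO5, at 86.5 and 32.1 CPM, while the core subunits CDC27 (210 and 193 CPM) and ANAPC5 (147 and 124 CPM) lay close together. Of 24 cohesin and condensin genes 4 were lower. Meiotic cohesin subunits led them, with STAG3 at 44.1 and 6.6 CPM, 6.68-fold lower (5.81 to 7.71), and SMC1B at 5.6 and 0.722 CPM. NIPBL, the general cohesin loader, had 223 and 197 CPM. Among 27 centrosome and centriole genes 5 were lower, including NIN (90.7 and 25 CPM) and STIL (51.7 and 23.4 CPM). The 40 primary cilium genes had 2 lower, CC2D2A and MKS1, and a median of -0.18, near that of all genes.

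Called genes of DNA replication were also all lower. Of 49 members 14 were lower and 0 higher, the median was -0.76, and 2 were above the median of all genes. PCNA, the sliding clamp, had 1599 and 539 CPM, 2.97-fold lower (2.92 to 3.02). RRM2, the ribonucleotide reductase subunit of dividing cells, had 212 and 79.5 CPM, and the origin-firing factors GINS3 and CDC45 had 36.5 and 11.3 CPM and 25.7 and 8.28 CPM. TOP2A, a topoisomerase that is also a marker of dividing cells, differed by less, at 273 and 230 CPM. With factors from coding genes alone 9 of the 49 were lower.

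Repair genes were split by pathway. In homologous recombination and the Fanconi anaemia pathway 9 of 37 were lower, with a median of -0.52. CLSPN, an adaptor of the replication checkpoint, had 52 and 17.1 CPM, and its kinase partner CHEK1 60.4 and 22.1 CPM. The large kinase gene ATM, by contrast, had 143 CPM in both. In mismatch and excision repair 3 of 31 were lower, all of them genes for DNA glycosylases of base excision, NEIL2, UNG and NEIL3, while DDB1 (459 and 427 CPM) and PARP1 (114 and 95.7 CPM) were close.

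Lower genes made up 8.9% of the chromatin area, against 11.0% over all coding genes. By list the share went from 21.7% for histone variants and chaperones to 0% for chromatin remodellers. Of 23 histone variant and chaperone genes 5 were lower, 2 of which, H1-8 and NPM2, are oocyte markers. ASF1A, a histone chaperone, had 65.5 and 22.2 CPM and CHAF1B, of the replication-coupled assembly factor, 34.7 and 12.8 CPM. Among 29 Polycomb genes PCGF2 was higher (11.5 and 29.4 CPM), and its alternative PCGF1 (29 and 10.6 CPM) and CBX7 (9.91 and 2.99 CPM) were lower. In the histone methyltransferase and demethylase list 5 of 36 were lower, including SETDB1, which silences transposons, at 199 and 84.3 CPM and the demethylase KDM3A at 133 and 50.3 CPM. In the acetylation list the coactivator NCOA3 was the 1 lower gene of 28, at 356 and 82.7 CPM, 4.3-fold lower (4.13 to 4.48). None of 30 chromatin remodeller genes passed the rule, and PBRM1 had 285 and 304 CPM.

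In the transcription area 11.8% of 434 genes were lower and 0.922% higher, against 11.0% and 1.89% over all coding genes. By list the share of lower genes went from 17% for general factors and Mediator to 8.84% for zinc finger genes. Of 53 general transcription factors and Mediator subunits 9 were lower and 0 higher, with a median of -0.43. The germ-cell versions GTF2A1L, at 43.9 and 8.14 CPM, and TAF4B, at 72 and 25.5 CPM, were among them, while the general subunit GTF2A1 had 130 and 99.8 CPM. With factors from coding genes alone 5 of the 53 were lower. The 249 zinc finger genes had 22 lower and 2 higher and a median of -0.09. ZNF354B (173 and 44.1 CPM) was lower, and the most abundant, ZNF644, had 420 and 563 CPM. Of 63 homeobox genes 10 were lower and 1 higher, led by OTX2 at 118 and 28.1 CPM, an oocyte marker. Among 36 nuclear receptor genes 5 were lower and 1 higher. NR3C2, the mineralocorticoid receptor, had 97.2 and 14.1 CPM, 6.88-fold lower (6.25 to 7.58), whereas the granulosa receptor NR5A2 had 669 and 579 CPM and PPARG 222 and 238 CPM. Forkhead, SOX and GATA genes had 5 of 33 lower and 0 higher. FOXI3 (35.6 and 4.33 CPM) and GATA3 (30.4 and 5.95 CPM) were low in LAC, while GATA6, a granulosa factor, had 344 and 450 CPM and SOX4 289 and 326 CPM.

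The general RNA-processing machinery had no member past the rule. None of 40 core spliceosome genes and none of 33 SR and hnRNP genes passed the rule, with medians of -0.36 and 0.03. SF3B1 had 484 and 710 CPM, PRPF8 538 and 462 CPM and HNRNPU 535 and 511 CPM. The lists for mRNA stability and tails did have lower members. In mRNA decay and deadenylation 4 of 51 were lower, with the deadenylase adaptor and oocyte marker BTG4 at 784 and 166 CPM, 4.72-fold lower (4.58 to 4.85), the translational repressor PATL2 at 79.4 and 14 CPM, and the exonuclease XRN1 at 257 and 126 CPM. CNOT1, the scaffold of the deadenylase complex, had 436 and 417 CPM.

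Poly(A) genes had 9 of 35 lower and 0 higher. PAIP1, a partner of the poly(A)-binding protein, had 739 and 233 CPM, 3.17-fold lower (3.09 to 3.25), and the germ-cell poly(A)-binding protein PABPC1L 7.31 and 1.58 CPM. PABPC1 itself had 355 and 282 CPM, and the cleavage factor CPSF6 304 and 510 CPM. Among 18 genes of RNA methylation and its readers 4 were lower. IGF2BP2 had 26.5 and 3.28 CPM, IGF2BP3, also a reader, 91.2 and 19.3 CPM, and the demethylase ALKBH5 91.1 and 39.8 CPM, while the reader YTHDF3 had 213 and 223 CPM. In the microRNA machinery LIN28B (4.72 and 0.913 CPM) and LIN28A, both blockers of let-7 maturation, were the lower genes of 12. For LIN28A CG had 1.14 CPM, and its value in LAC was 0.

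Lower genes made up 10.5% of initiation and elongation factors, 10.3% of aminoacyl-tRNA synthetases and 2.94% of ribosome biogenesis genes. Over all coding genes the share was 11.0%. Of 57 initiation and elongation factors 6 were lower and 0 higher. EIF4E1B, an oocyte cap-binding protein, had 68.2 and 12.5 CPM, and EIF4ENIF1, which holds cap-binding protein in repressed particles, 148 and 53.4 CPM. EIF4G2 had 1498 and 1473 CPM and EIF4A1 716 and 645 CPM. Aminoacyl-tRNA synthetases had 4 of 39 lower, among them TARS1, listed as TARS, at 201 and 67 CPM, 3.01-fold lower (2.87 to 3.15). Ribosome biogenesis had 2 of 68 lower, LTV1 and UTP4, and a median of -0.35, with NCL at 183 and 148 CPM.

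Mitochondrial genes had fewer calls than the background. The mitochondrial ribosome list went both ways, with 4 lower and 2 higher of 68. MRPS22 had 187 and 38.3 CPM, 4.88-fold lower (4.6 to 5.18), while MRPL33 had 8.5 and 27.3 CPM. Protein import had 1 of 30 lower, GRPEL2, and respiratory chain assembly 2 of 39, NDUFAF7 and COA7. In the tricarboxylic acid cycle and pyruvate list 4 of 36 were lower. DLST, a subunit of oxoglutarate dehydrogenase, had 438 and 126 CPM, 3.48-fold lower (3.37 to 3.6), PDHA1, of pyruvate dehydrogenase, 149 and 67.5 CPM, and citrate synthase, CS, 417 and 273 CPM.

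In lipid metabolism lower genes made up 3.23% of fatty acid oxidation, 8.7% of fatty acid synthesis and 10.2% of phospholipid and sphingolipid synthesis. Over all coding genes the share was 11.0%. Fatty acid oxidation had 1 of 31 lower, ACSL5, with HADHA at 202 and 189 CPM. Fatty acid synthesis had 2 of 23 lower, the elongases ELOVL7 (20.1 and 3.65 CPM) and ELOVL2 (71 and 20.9 CPM), while ACLY, the citrate lyase, had 188 and 155 CPM. In phospholipid and sphingolipid synthesis 5 of 49 were lower and 1 higher. Of the isoenzymes that make CDP-diacylglycerol, CDS1 had 34.9 and 9.45 CPM and CDS2 684 and 637 CPM. GPAT2, an acyltransferase of germ cells, had 21.1 and 3.76 CPM.

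Folate, methionine and nucleotide metabolism had a few large decreases. Lower genes made up 14.3% of the folate, serine and methionine list and 12% of the purine and pyrimidine list. The shares were 12.5% for cytochrome P450 and conjugation, 10.3% for retinoids and aldehydes and 7.89% for selenium, iron and copper. Over all coding genes the share was 11.0%. In the folate, serine and methionine list 5 of 35 were lower with a median of -0.40. SHMT1, the cytosolic serine hydroxymethyltransferase, had 30.7 and 3.86 CPM, 7.96-fold lower (6.64 to 9.61), and MAT1A, a synthetase of S-adenosylmethionine, 47.2 and 6.95 CPM. Its relative MAT2A had 129 and 136 CPM. Purine and pyrimidine genes had 6 of 50 lower, with GMPS, which makes GMP, at 197 and 84.7 CPM and the purine catabolic enzyme XDH at 13.5 and 3.24 CPM, while PPAT, the first enzyme of purine synthesis, had 211 and 206 CPM. Cytochrome P450 and conjugation genes had 5 of 40 lower, with CYP2S1 at 21.2 and 5.04 CPM, and the aromatase gene CYP19A1 had 163 and 265 CPM. In retinoid and aldehyde metabolism 4 of 39 were lower, RDH12 at 12.1 and 1.97 CPM among them, and ALDH1A2, which makes retinoic acid, had 361 and 435 CPM. Selenium, iron and copper genes had 3 lower and 1 higher of 38, and the ferritin genes FTH1 (616 and 583 CPM) and FTL (219 and 218 CPM) were close.

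By the size rule the lists for glycan synthesis had no lower genes, and their shares of higher genes differed. The share was 7.32% in heparan and chondroitin sulphate synthesis and 1.85% in N-glycosylation and GPI anchor synthesis. Over all coding genes it was 1.89%. In heparan and chondroitin sulphate synthesis 3 of 41 were higher and 0 lower, and the median was 0.03, which is 0.17 above that of all genes. All 3 are sulphotransferases: CHST11, described above, CHST7 (4.29 and 12.9 CPM) and CHST15 (0 and 2.12 CPM). HS6ST2, a heparan sulphotransferase, had 280 and 447 CPM, 1.6-fold higher, without passing the rule. In N-glycosylation and GPI anchor synthesis 1 of 54 was higher and 0 lower. That gene was MGAT1, which starts complex N-glycans, at 50.6 and 117 CPM, 2.32-fold higher. With 0.1 CPM added before taking logs instead of 1, the heparan and chondroitin list had 3 higher and 5 lower. The N-glycosylation list then had 1 higher and 1 lower. In the list for COPI, COPII and the Golgi 0 of 75 genes passed the rule, and the median was 0.03, with TMED2 at 543 and 582 CPM and COPA at 402 and 445 CPM.

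Membrane transporters and channels had more lower genes than the background. Solute carriers had 37 of 268 lower and 3 higher. The serotonin transporter SLC6A4 had 18.9 and 1.21 CPM, 15.7-fold lower (11.4 to 22), SLC3A1, a subunit of the cystine transporter, 36.8 and 3.2 CPM, and the citrate transporter SLC13A5 31.8 and 3.4 CPM. The abundant carriers SLC5A3, for inositol, and SLC25A5, for ADP and ATP, had 451 and 439 CPM and 342 and 297 CPM, and the monocarboxylate carrier SLC16A1 had 345 and 184 CPM. Of 36 ATP-binding cassette genes 10 were lower and 1 higher. The drug exporter ABCB1 had 58.9 and 12.7 CPM, and ABCA8 was higher at 3.8 and 18.3 CPM. Potassium channels had 10 of 62 lower and 1 higher, with KCNC4 at 13.7 and 1.06 CPM and KCNG3 at 41.8 and 15.9 CPM. Calcium genes had 8 of 55 lower and 0 higher, with the irritant-sensing channel TRPA1 at 22.2 and 3.31 CPM and the store pump ATP2A2 at 493 and 280 CPM. Among 43 transmitter receptors 5 were lower and 2 higher. The nicotinic subunit CHRNA5 had 83.8 and 14.2 CPM, the glutamate receptors GRM8 and GRIN2B 114 and 23.8 CPM and 29.7 and 4.08 CPM, and the GABA receptor subunit GABRB2 105 and 145 CPM.

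In protein turnover 10.4% of 483 genes were lower, against 11.0% over all coding genes. By list the share went from 16.9% for deubiquitinases to 1.89% for the lysosome. It was 15.3% for F-box adaptors and 4.26% for the proteasome. The proteasome list had 2 of 47 lower and 0 higher. These were PSMC2, an ATPase subunit, at 269 and 122 CPM, and PSMA8, the germ-cell subunit, at 12.4 and 3.03 CPM, while PSMD2 had 322 and 312 CPM. F-box adaptors had 9 of 59 lower. FBXW12 had 156 and 22.6 CPM, 6.91-fold lower (6.4 to 7.45), and SKP1, the linker to the cullin, 311 and 152 CPM. With factors from coding genes alone 4 of the 59 were lower. Cullin and BTB-Kelch adaptors had 7 lower, FEM1B first, and 2 higher of 97, and DCAF8 had 237 and 264 CPM.

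Ubiquitin-conjugating enzymes had 4 of 34 lower, including the abundant UBE2D3 at 679 and 334 CPM, 2.04-fold lower (1.99 to 2.08), and UBE2Q2 at 229 and 97 CPM. Deubiquitinases had 11 of 65 lower and 1 higher. UCHL1, a hydrolase of neurons and germ cells, had 106 and 18.5 CPM, USP44, which helps sustain the spindle checkpoint, 145 and 31.4 CPM, and the large USP34 416 and 493 CPM. RING-finger genes named RNF or TRIM had 14 lower and 2 higher of 108, with TRIM71, which represses mRNA in stem and germ cells, at 107 and 21.2 CPM and RNF19A at 207 and 266 CPM. The lysosome list had 1 lower, ATP6V1E1, and 2 higher of 53, the proteases CTSC and CTSS, both under 10 CPM. PSAP, a precursor of lysosomal activators, had 277 and 289 CPM. Chaperonin and prefoldin genes had 2 of 20 lower, and CCT2 had 259 and 194 CPM.

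Cytoskeletal genes were lower more often than genes at large. Kinesins had 9 of 35 lower and 0 higher and a median of -0.50. KIF24 had 69.7 and 15.6 CPM and the neuronal motor KIF5A 7.24 and 0.545 CPM, while KIF5B, the general form, had 248 and 195 CPM. Dyneins had 6 lower and 1 higher of 38. The axonemal heavy chain DNAH11 had 49.7 and 9.4 CPM and the neuronal intermediate chain DYNC1I1 30.5 and 6.99 CPM, against 510 and 672 CPM for the general heavy chain DYNC1H1. Tubulin and microtubule genes had 8 of 51 lower, with the tubulin ligase TTLL4 at 123 and 26.8 CPM and TUBAL3 at 52.2 and 11.3 CPM, while TUBB had 772 and 639 CPM. Myosin and actin-binding genes had 14 lower and 1 higher of 93. EZR, which anchors actin in microvilli, had 56.6 and 10 CPM, 5.66-fold lower (5.04 to 6.35), and FMN1, a formin, 63.7 and 13.2 CPM, while TPM1 had 1395 and 1406 CPM and FLNA 420 and 614 CPM.

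Membrane traffic had fewer lower genes than the background. Rab genes had 10 lower and 2 higher of 106, with RAB27A, of granule exocytosis, at 33.3 and 7.82 CPM, and RAB1A at 233 and 217 CPM. SNARE and exocyst genes had 7 lower and 2 higher of 71. Synaptotagmin-type regulators of exocytosis led, SYT10 at 28.4 and 2.69 CPM, 10.6-fold lower (8.48 to 13.1), and SYTL2 at 120 and 21.8 CPM. SEC22B, of transport between endoplasmic reticulum and Golgi, had 137 and 152 CPM. In the ESCRT and sorting nexin list 5 of 75 were lower, with TSG101 at 157 and 56 CPM and SNX13 at 141 and 261 CPM. Nuclear pore and importin genes had 8 lower and 1 higher of 65. The oocyte importin KPNA7 had 344 and 49.7 CPM, IPO8 279 and 61 CPM and IPO13 182 and 57.5 CPM, and KPNA4 had 234 and 354 CPM. The 1 higher gene, named here after its value was seen, was the import receptor TNPO1 at 154 and 321 CPM. With factors from coding genes alone 4 of the 65 were lower.

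In signalling 105 genes were lower and 26 higher of 699. Phosphoinositide and protein kinase C genes had 17 of 80 lower and 0 higher, with a median of -0.36. PLCG2 had 7.86 and 0.81 CPM and PIK3C2G 10.8 and 1.52 CPM, while PRKD3 had 508 and 304 CPM. MAP kinase genes had 11 of 81 lower and 0 higher, among them the feedback inhibitors DUSP5 (20.5 and 4.06 CPM) and SPRY4 (56.2 and 12.7 CPM). Cyclic nucleotide genes had 9 lower and 4 higher of 69. CREB5 had 0.581 and 6.49 CPM and the kinase anchor AKAP12 5.04 and 19.5 CPM, while the phosphodiesterase PDE1C had 13.8 and 3.31 CPM. The abundant kinase subunits PRKAR2B and PRKAR1A had 677 and 890 CPM and 699 and 601 CPM. In the insulin, mTOR and AMPK list SGK1 was higher and 3 of 56 were lower, including TSC1, a brake on mTOR, at 98 and 41.1 CPM. The mTOR inhibitor DEPTOR had 527 and 649 CPM, and with factors from coding genes alone 4 of the 56 were higher.

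G protein-coupled receptors of the GPR and ADGR series and RGS proteins had 18 lower and 3 higher of 87. RGS22 had 15.3 and 1.49 CPM and CMKLR2, listed as GPR1, 42 and 8.69 CPM, against 227 and 313 CPM for the adhesion receptor ADGRL3.

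In developmental pathways ligands, receptors and modulators moved in both directions. The Wnt list had 8 lower and 1 higher of 55. Besides RSPO2, the nuclear effector LEF1 had 52.3 and 9.4 CPM and the surface proteoglycan GPC3 31.2 and 8.31 CPM, while the inhibitor DKK2 had 1417 and 2086 CPM and CTNNB1, the beta-catenin gene, 681 and 502 CPM. Of 59 TGF-beta and BMP genes 6 were lower and 4 higher. The lower ones include the oocyte growth factors BMP15 and GDF9, and GDF7 was higher at 0.24 and 3.87 CPM. The Notch and Hedgehog list had 8 of 46 lower and 0 higher. The ligands JAG1 and DLL4 had 128 and 39.7 CPM and 6.16 and 1.12 CPM, whereas the receptor NOTCH2, at 1103 and 1413 CPM, was not lower.

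Receptor tyrosine kinases and their ligands had 13 lower and 7 higher of 73, which is 17.8% and 9.59% of the list. TEK, the angiopoietin receptor, was 11-fold lower (9.29 to 13.1), GFRA1, a receptor for glial-derived factor, had 46.5 and 5.23 CPM, and KIT, the receptor by which oocytes respond to granulosa KIT ligand, 34.9 and 5.12 CPM. ERBB4, a receptor for neuregulins, had 1024 and 2032 CPM, 1.99-fold higher, with a difference of 0.99 just under the rule. The binding protein IGFBP5 had 480 and 714 CPM. Guidance genes, the ephrins, semaphorins, slits and netrins, had 9 lower and 4 higher of 62. UNC5D (5.63 and 0.795 CPM) and EPHA1 (16.2 and 4.59 CPM) were low in LAC, and the abundant SLIT3 had 1235 and 1860 CPM.

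The Hippo list had 3 lower and 2 higher of 33 and a median of 0.10, which is 0.24 above that of all genes. VGLL3, a cofactor of TEAD transcription factors, had 0.897 and 19.2 CPM, and CCN2, a classical target of YAP, was also higher. AMOT, which holds YAP in the cytoplasm, had 176 and 32.5 CPM, 5.41-fold lower (5.08 to 5.77). YAP1 itself had 367 and 354 CPM and the giant cadherins FAT1 and DCHS1 had 1284 and 1379 CPM and 134 and 257 CPM.

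Immune genes had a median of 0.05, above that of all genes, though few were abundant. Cytokines, chemokines and their receptors had 7 of 81 lower and 0 higher. With 0.1 CPM added before taking logs instead of 1, 17 of them were higher and 19 lower. IL1RAPL2, a receptor accessory protein gene, had 195 and 41.7 CPM, 4.67-fold lower (4.41 to 4.94), and the shared receptor subunit IL6ST 331 and 347 CPM. In the TNF and NF-kappaB list 3 were lower and 2 higher of 52. The higher ones were TNFRSF11B and BIRC3, an inhibitor of apoptosis, at 0.518 and 6.2 CPM. TNFRSF19, at 139 and 279 CPM, was 2-fold higher and lay just under the rule. With factors from coding genes alone 6 of the 52 were higher. Complement and coagulation had 4 higher and 3 lower of 49. C3 had 0.24 and 4.37 CPM, C9 10.8 and 1.06 CPM, and the abundant protease inhibitor SERPINE2 1631 and 1842 CPM.

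The innate sensing list had 13 lower and 1 higher of 59, and its lower members do not all serve immunity. The lower genes included 7 of the NLRP family, some of which act in the oocyte. NLRP14 had 689 and 131 CPM, 5.28-fold lower (5.11 to 5.45), NLRP5, an oocyte marker, 270 and 65.7 CPM, and NLRP8 58.2 and 8.89 CPM. JAK1 had 196 and 158 CPM. Markers of blood-derived cells were mostly at low levels. The macrophage list went both ways, with 2 of 10 higher, 1 lower and a median of 0.43. Its sum of 58.4 and 32.3 CPM was lower through the scavenger receptor gene MSR1 (47.3 and 8.2 CPM), while MRC1 (0.733 and 8.04 CPM) and CD163 (0.101 and 1.43 CPM) were higher and MARCO was at 0 in both. The lymphocyte list summed to 22.2 and 7.89 CPM, with MS4A1 (14 and 2.83 CPM) and CD3G (5.09 and 0.736 CPM) lower. Its other members did not pass the rule, among them PTPRC at 0.669 and 1.77 CPM and CD8A at 1.98 and 2.05 CPM, and CD3E, CD79B and NKG7 were at 0 in both libraries. The part of these cells in the immune lists was not tested.

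Adhesion and surface genes held the largest share of higher genes among the areas, 7.51% against 1.89% over all coding genes. Lower genes still outnumbered them, at 13.6% of the area against 11.0% over all coding genes. Integrins and laminins had 4 higher and 4 lower of 50, with a median of 0.08. With 0.1 CPM added before taking logs instead of 1, 12 were higher and 6 lower. ITGB8 had 1.93 and 8.38 CPM, ITGA2, a collagen receptor subunit, 77 and 17.6 CPM, and LAMA3 23.9 and 6.18 CPM. ITGB1, the common partner, had 589 and 606 CPM. Claudins, cadherins and protocadherins had 15 lower and 5 higher of 76. E-cadherin, CDH1, had 64.1 and 12.8 CPM, 5.02-fold lower (4.52 to 5.56), and CTNND2 12.5 and 1 CPM, whereas N-cadherin, CDH2, had 768 and 884 CPM and PCDH7 was higher. The surface and oviduct epithelial markers summed to 82.9 and 21.8 CPM, nearly all of it in CDH1 and EPCAM (17.7 and 4.95 CPM), which were lower. KRT18 was higher (0.707 and 2.59 CPM), KRT8 had 0.366 and 1.44 CPM, and FOXJ1, KRT19, OVGP1 and PAX8 were at 0 in both. Intermediate filament genes had 4 lower and 3 higher of 24, with DES at 0.632 and 3.09 CPM and VIM at 638 and 661 CPM. Tetraspanins had 3 lower and 2 higher of 27, with CD9, a protein of the egg surface, at 11.1 and 3.5 CPM and CD63 at 118 and 132 CPM. ADAM and ADAMTS genes had 3 lower and 2 higher of 36, with ADAMTSL1 at 83.9 and 16.5 CPM and ADAM10 at 207 and 190 CPM.

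**Figure D4:**
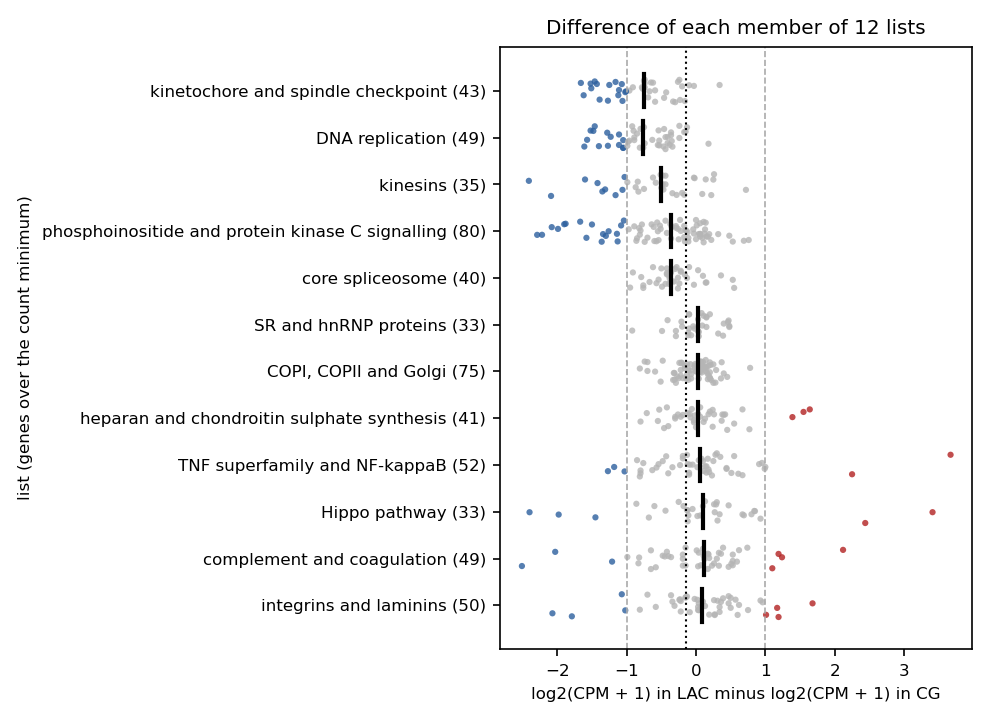
Difference in log2(CPM + 1), LAC minus CG, of each member of 12 lists (number of members in brackets). Each point is a gene, blue where lower by at least 1, red where higher by at least 1 and grey otherwise; black bars are list medians, the dotted line the median of all coding genes at -0.14 and dashed lines the size rule. The replication and kinetochore lists lie to the left as a whole, with medians of -0.76 and -0.75, while the Hippo and TNF lists have single genes far to the right.

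Some genes were listed at 0 in 1 of the libraries, and those named here were picked after their values were seen. This held for 484 genes in LAC and 268 in CG, and the highest level such a gene reached in the other library was 13.4 CPM and 4.48 CPM. The bound of a fold against 0 is the near end of the 95% interval used above. GSDMA, a pore-forming gasdermin gene, had 10.4 CPM in CG and was at least 95.4-fold lower in LAC. VWC2, a secreted BMP antagonist gene, had 8.27 CPM and was at least 75.8-fold lower. On the other side VNN1, a pantetheinase gene, had 4.48 CPM in LAC, at least 47.5-fold higher, and CD74, the invariant chain of antigen presentation, 2.92 CPM, at least 30.7-fold higher. All of these are low-level genes.

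By annotated cellular compartment, lower genes were most frequent under the chromatin annotation (15.5% of 58, with 0 higher) and among integral plasma membrane proteins (15.2% of 645). Centrosome genes (14.9% of 336, with 0 higher), microtubule genes (14.8% of 176) and cytoskeleton genes (14.8% of 264) followed. Over all coding genes the shares were 11.0% lower and 1.89% higher. They were infrequent among genes of the peroxisome (1.49% of 67), focal adhesion (5.63% of 284) and mitochondrion (6.15% of 878). Higher genes were frequent in the lysosome (5.3% of 132), the extracellular space (5.27% of 645), the synapse (4.84% of 124) and focal adhesions (4.23% of 284). A gene can carry several compartments, so these groups overlap.

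Level and span of a gene went with the share of calls. In quintiles of the genes by mean level, lower genes made up 2.76% at 0.0632 to 1.17 CPM, 18.8% at 1.17 to 7.79 CPM, 13.8%, 11.8% and then 7.99% at 60.4 CPM and above. Higher genes made up 4.03% in the next-lowest quintile and 0.999% in the top quintile. The lowest quintile can hardly pass the rule, because 1 CPM is added before taking logs. By the span of the locus, lower genes made up 6.06% in the shortest quintile, up to 5.93 kb, and 14.8% in the longest, from 85.2 kb, while higher genes stayed between 1.5% and 2.33%. The median span was 38.9 kb for lower genes, 23 kb for higher genes and 22.7 kb for the rest.

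**Figure D5:**
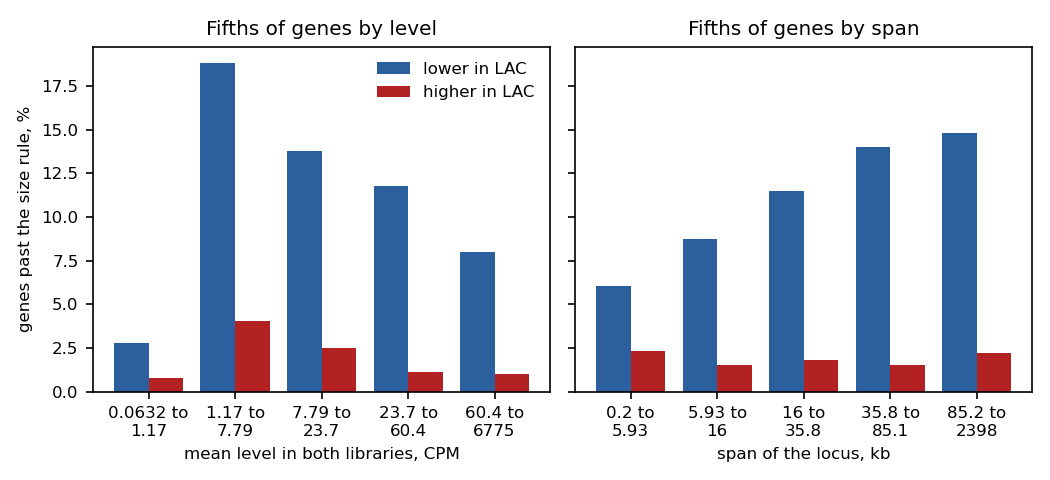
Share of genes past the size rule, in percent, in quintiles of the coding genes by mean CPM of both libraries (left) and by span of the locus in kb (right), with lower genes in blue and higher genes in red. Lower genes peak at 18.8% in the next-lowest quintile by level and climb with span from 6.06% to 14.8%.

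Position along the genome separated the calls little. On the 19 assembled sequences with at least 200 tested genes, lower genes made up 8.18% to 15.5% and higher genes 0% to 4.69%. Of the lower genes 27% had another lower gene as a direct neighbour, against 18.6% of the other coding genes. For higher genes the shares were 5.65% and 3.44%. Reads on both strands were about equal in the deposited statistics (42.78% sense and 42.85% antisense in CG). These shares do not show whether overlapping neighbours share reads, and the part of shared reads was not tested.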

How the data were processed

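RNA of cumulus-oocyte complexes was depleted of ribosomal RNA, and dUTP marked the second strand, per the labels' protocols. Reads were handled with fastp and HISAT2 on the build OryCun2.0, per the submitters' processing notes, and which program assembled transcripts is not stated there. The deposited files stack several tables, of which the gene table was used. Its values, of no standard unit across the whole file, are the authors' estimated count and FPKM for each locus; the authors' count equals coverage times length divided by 75 at 100% of 8651 loci checked in CG and 8638 in LAC, while reads have 150 bases. The gene table in the HAC file repeats that of LAC, so its 2 per-sample columns were not used.

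Counts were scaled with TMM factors (1.009 and 0.991, with 30% of ratios and 5% of levels trimmed), and differences were taken on the log2(CPM + 1) scale, which understates changes of low genes. Intervals were computed on halved counts. Python 3.11.15, pandas 2.3.3, numpy 2.4.6, SciPy 1.17.1 and matplotlib 3.10.9 were used. The calling step was tested on simulated data with as many raised as lowered genes and counting error only. That simulation could not check the scaling where lower genes outnumber higher ones, as they do here. Depths of 78461882 and 68523767 counts give narrow counting intervals, which leave out every other error. Members, lists and markers were chosen with earlier results of these data known.

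Symbols are those of the files. Of the genes, 12532 had a symbol of their own, 455 got one through their gene number from the RefSeq table of mOryCun1.1, 1810 had none, and 361 rows merge several genes. The text names, for each direction, the 15 genes of at least 50 CPM and their own symbol that differed most, the 10 with the highest mean, in each list up to 3 by mean and 3 by difference, and markers. Descriptions of promoters and protein length were not made, as no sequences were used here. There were 10 alternatives, changing scaling, pseudocount, count minimum, size rule, FPKM and the naming of rows. Some genes and 2 lists that these rules name are not reported here.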

Additional observations from a re-analysis of the deposited data

How the results depend on the processing

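The excess of lower genes held in each of the 10 alternatives, and the sizes of the counts did not. With a pseudocount of 0.1 CPM 943 genes were higher and 2740 lower, with 5 CPM 112 and 909, and with a size rule of 2 on the log2 scale 41 and 323. With the deposited FPKM 179 were higher and 1428 lower. TMM factors from coding genes alone raised every log2 ratio by 0.18, brought the median difference to 0, and gave 396 higher and 1340 lower genes. The share of higher among all calls was then 22.8%, against 14.6%. The other scalings gave 269 to 270 higher and 1703 to 1716 lower, and a count minimum of 50 or none gave the same 283 and 1653. No paired analysis was possible because each group had 1 library. For the same reason neither animals nor library preparation can be told apart from ammonia, and no replicate could be left out. The label of the LAC gene table remains uncertain.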
